A study of Homo sapiens with 6 samples.

Results

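The clustered protocadherins are cell-surface adhesion proteins encoded by 3 neighbouring gene clusters on human chromosome 5. All genes of the count tables whose symbols name a member of the alpha, beta or gamma cluster were taken, whatever their values, which gave 53 of the 47470 genes listed: 15 alpha genes at chr5:140786140-141012347, 16 beta genes at chr5:141051374-141249365 and 22 gamma genes at chr5:141330514-141512975 (GRCh38, RefSeq). The counts came from RNA-seq of HEK293T, a cell line derived from human embryonic kidney and expressing SV40 large T antigen. One group of 3 libraries was untreated, and the other group of 3 came from cells cultured for 1 day with 1 mM valproic acid (VPA), an inhibitor of class I and IIa histone deacetylases. Both groups were of the same line with no further genetic change named, and the comparison asks how the RNA counts of these genes differed after VPA. As nothing in the labels says that the replicates were separate cultures, the p-values measure only the spread between these libraries.

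Each alpha and gamma gene has its own large first exon with its own promoter, and this exon is spliced to constant exons that the whole cluster shares. The beta genes are made of a single exon each and share none. In neurons a cell switches on a small, largely random set of these promoters, with CTCF and cohesin looping a chosen promoter to a distant enhancer, and DNA methylation keeping the others silent. The proteins bind like to like across cell contacts, and the set on a cell's surface acts as its identity code in dendrite self-avoidance. The C-type genes at the end of the alpha and gamma clusters, PCDHAC1, PCDHAC2, PCDHGC3, PCDHGC4 and PCDHGC5, are known to be used more evenly between cells than the alternate genes.

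In these libraries the clusters were weakly expressed and unequally so. The gamma cluster carried nearly all counts, led by PCDHGC3, PCDHGA11 and PCDHGC4, whereas most alpha and beta genes had a handful of counts per library. Of the 53 genes, 49 had at least 1 count in any library, PCDHA6, PCDHA13, PCDHAC2 and PCDHB1 had none, and 43 stayed under 10 counts in every library. Totals on genes were between 18622267 and 18828495 counts per library, so that a single count in a cluster gene is close to the limit of detection. Reads in the shared constant exons overlap several alpha or several gamma genes. In its default mode htseq-count sets such reads aside as ambiguous, a class that held 1.97% to 2.10% of the reads listed per library, and an alpha or gamma count then reflects mainly the first exon. The mode used is not given in the sources used here.

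The DNA around the starts of the cluster genes is shown first, since it is the shared feature of the alternate promoters and CTCF is known to bind there. RefSeq promoter windows on GRCh38.p14 (300 bases, 250 before to 50 after the start) were found for 47 of the 53 genes. The windows of PCDHA3, PCDHA13, PCDHB6, PCDHB11, PCDHGA12 and PCDHGC5 were not analysed here. The run of 10 bases shared by the most windows was sought over all members and then within each cluster, read on the strand of the gene, and matches were then counted on both strands. The overall leader, GGTGGCGCTG, lay in 12 of 14 beta windows, in no alpha or gamma window and in 0.341% of the windows of 27305 genes. The alpha leader, ATGATGTCGC, lay in 8 of 13 alpha windows and in 0.0403% of all genes, and the gamma leader, GCGCCGCTGT, in 9 of 20 gamma windows and in 0.165% of all genes. The following 60-base stretches, on the plus strand and with the leading run in capitals, show the run in its context before the start.
PCDHA2, chr5:140794765-140794824: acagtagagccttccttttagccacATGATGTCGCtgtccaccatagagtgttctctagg
PCDHB2, chr5:141094530-141094589: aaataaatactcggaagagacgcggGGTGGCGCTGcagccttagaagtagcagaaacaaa
PCDHB13, chr5:141213851-141213910: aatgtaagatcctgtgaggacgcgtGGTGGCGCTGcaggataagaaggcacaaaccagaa
PCDHB16, chr5:141182296-141182355: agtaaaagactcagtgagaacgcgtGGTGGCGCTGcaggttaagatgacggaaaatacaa
PCDHGA7, chr5:141382636-141382695: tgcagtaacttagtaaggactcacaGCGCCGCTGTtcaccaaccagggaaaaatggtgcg
The run began a median of 58.5 bases before the start in the alpha windows (range 45 to 88), 65.5 in the beta windows (2 to 84) and 69 in the gamma windows (44 to 99). The beta and gamma runs both hold the letters CGCT, and the alpha run is followed by a t that completes them. CGCT lay on either strand of 46 of the 47 windows (97.9%), all except PCDHA9, against 71.9% of all genes. A longer pattern taken from the core of the CTCF motif, AGNNGGCNC, lay in 7 of 47 windows (14.9%) against 29.1% of all genes. The beta run of 10 bases holds this pattern apart from its leading A, so most beta windows hold it but for that letter. A match of letters is not a binding site, and no match says only that the letters are not in the window. CG dinucleotides, the sites of DNA methylation, numbered a median of 7.5 per window in the members, with 7 in alpha, 7.5 in beta and 10 in gamma, against 14.0 over all windows.

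None of the gamma genes with the most counts carried the gamma run of 10 bases unchanged. In the stretches below, PCDHGA11, PCDHGC3 and PCDHGC4 each hold the run with 1 base changed, around a CGCT. The 120 bases before the start of these genes and of the alpha genes with the most counts are given on the plus strand, with every CGCT in capitals.
PCDHA10, chr5:140855777-140855896: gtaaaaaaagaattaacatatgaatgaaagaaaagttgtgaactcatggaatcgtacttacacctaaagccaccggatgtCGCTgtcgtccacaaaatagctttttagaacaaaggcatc
PCDHA11, chr5:140868837-140868956: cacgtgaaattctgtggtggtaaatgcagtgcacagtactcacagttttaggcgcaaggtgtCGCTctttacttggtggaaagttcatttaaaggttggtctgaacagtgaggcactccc
PCDHGA11, chr5:141420931-141421050: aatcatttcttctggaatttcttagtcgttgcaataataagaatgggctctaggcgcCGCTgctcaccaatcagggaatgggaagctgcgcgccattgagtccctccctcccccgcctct
PCDHGC3, chr5:141475846-141475965: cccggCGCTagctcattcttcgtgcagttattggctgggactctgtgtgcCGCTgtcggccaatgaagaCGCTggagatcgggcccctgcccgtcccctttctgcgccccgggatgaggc
PCDHGC4, chr5:141484910-141485029: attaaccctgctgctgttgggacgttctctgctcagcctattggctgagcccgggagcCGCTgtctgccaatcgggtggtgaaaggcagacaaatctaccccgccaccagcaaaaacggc
PCDHGC3 had 3 such matches in this stretch and the other genes 1 each.

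The cluster sums per library give the first view of the response. Counts were scaled between libraries by the TMM method and to the mean library (normalized counts). The 15 alpha genes summed to 8.28, 3.14 and 5.25 normalized counts untreated, against sums of 24.0, 27.9 and 14.4 after VPA. The 16 beta genes summed to 6.21, 22.0 and 22.0 untreated, against 44.1, 61.6 and 66.1 after VPA. The 22 gamma genes summed to 444, 428 and 389 untreated and to 633, 637 and 584 after VPA. In all 3 clusters every VPA-treated library lay above every untreated library, with untreated replicate 1 standing low in the beta cluster and VPA-treated replicate 3 low in the alpha cluster.

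**Figure D1:**
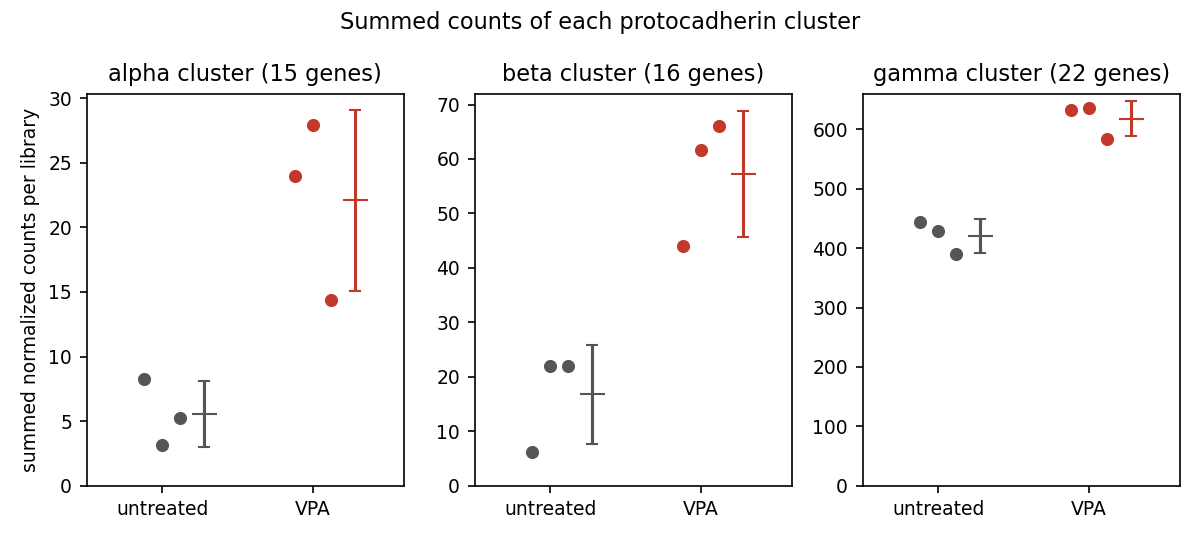
Summed normalized counts (vertical axes, each from 0) of the alpha, beta and gamma clusters in the 3 untreated and 3 VPA-treated libraries, as points, with the mean and SD beside them. The VPA-treated libraries lie above the untreated ones in each panel, and the gamma sums reach 637 counts while the alpha sums stay at or below 27.9.

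As ratios of the group means, the alpha sum was 3.97 times higher after VPA (5.56 ± 2.58 against 22.1 ± 6.98, SD, n = 3), the beta sum 3.42 times (16.7 ± 9.12 against 57.3 ± 11.6) and the gamma sum 1.47 times (421 ± 28.1 against 618 ± 29.5). The 12303 listed genes with 1 to 100 counts over all 6 libraries, summed in the same way, had a ratio of 1.41. That range leaves out PCDHGC3, PCDHGA11 and PCDHGC4, which made up most of the gamma sum, so it is no like background for the gamma ratio. The sums have no test, because the genes were chosen with results known, and the differences between the clusters were not tested. Without untreated replicate 1 the beta log2 ratio was 1.38 in place of 1.77, and without VPA-treated replicate 3 the alpha log2 ratio was 2.22 in place of 1.99. Within the gamma cluster the ratio was 1.56 for the 3 C-type genes (271 ± 19 against 423 ± 8.99), 1.33 for the 12 A-type genes and 1.20 for the 7 B-type genes. The A-type value rests on PCDHGA11: the other 11 A-type genes summed to 22.6 ± 2.31 untreated and 37.4 ± 4.27 after VPA, a ratio of 1.66, so no order of the types can be read. In whole-culture RNA, more cells using a promoter and more RNA per cell cannot be told apart.

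A wider set of cluster genes was seen after VPA. In the untreated libraries 26, 30 and 28 of the 53 genes had at least 1 count, and in the VPA-treated libraries 40, 41 and 39. This gain lay in the alpha cluster (4, 3 and 4 genes untreated against 9, 9 and 6 after VPA) and in the beta cluster (3, 8 and 7 against 11, 14 and 13), whereas gamma genes were already nearly all seen (19, 19 and 17 against 20, 18 and 20). Over the 12303 genes with 1 to 100 counts, between 6669 and 6872 were seen per untreated library and between 8229 and 8375 per VPA-treated library. Counts came only from VPA-treated libraries for 5 alpha and 6 beta genes, and only from untreated libraries for the gamma genes PCDHGA3 (1 count) and PCDHGA8 (2 counts).

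**Figure D2:**
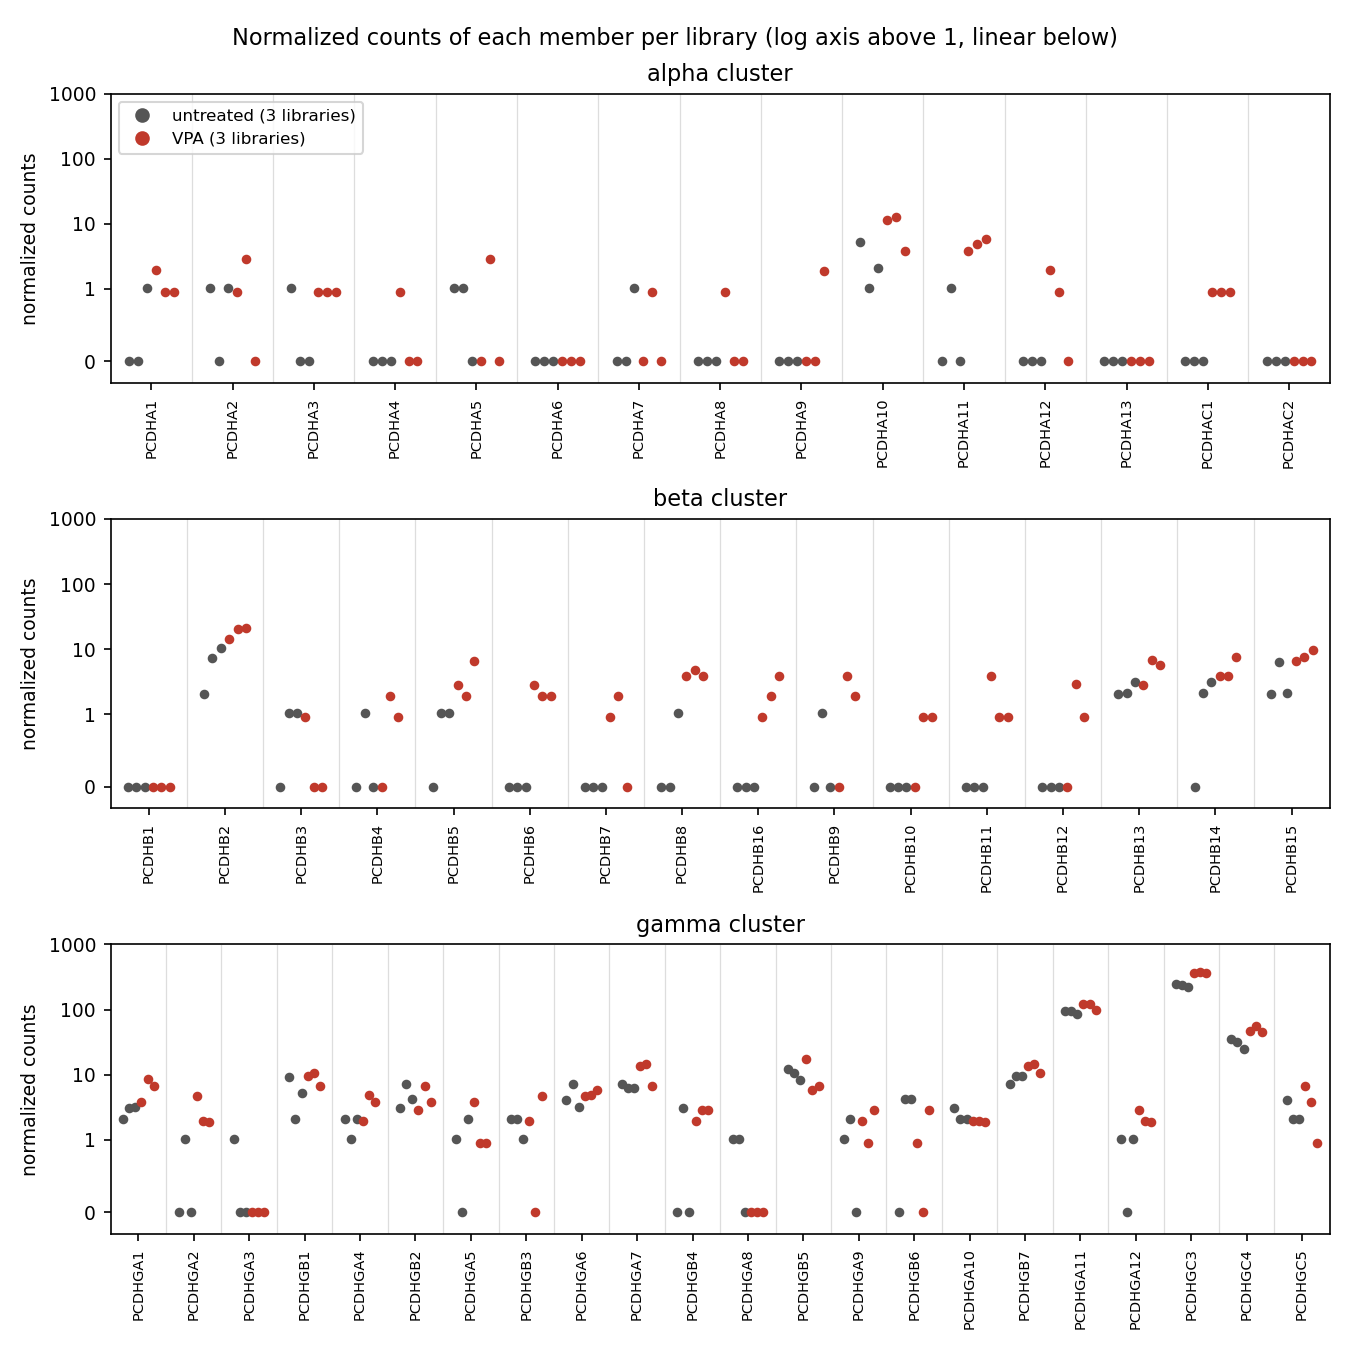
Normalized counts of the 53 genes in each of the 6 libraries (vertical axes, logarithmic above 1 and linear from 0 to 1), with genes in their order along each cluster, untreated libraries in grey and VPA-treated libraries in red. Most alpha and beta genes sit at or near 0 when untreated, and PCDHGC3, PCDHGA11 and PCDHGC4 stand above the rest of the gamma cluster in all 6 libraries.

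The filter on low counts left 5 of the 53 genes for the test across 15298 genes, PCDHB2, PCDHGA11, PCDHGB7, PCDHGC3 and PCDHGC4, and no alpha gene. PCDHGA11, PCDHGC3 and PCDHGC4 had at least 10 counts in every library. PCDHB2 and PCDHGB7 reached 10 counts in all VPA-treated libraries but in 1 and 0 of the untreated ones. They therefore passed through the group in which they were higher. Counts over the 5 genes and their median log2 fold change give no support of their own. With edgeR's quasi-likelihood test and Benjamini-Hochberg adjustment over all tested genes, 1 of the 5 was up-regulated, which required both an adjusted p under 0.05 and a doubling or more (log2 fold change 1), against 12% of all tested genes. By edgeR 0 were down-regulated, against 0.503% of all tested genes. By the adjusted p alone 4 were higher (32.9% of all tested genes were) and 0 were lower (30% were). DESeq2 also had 0 lower, and 0 were lower at an unadjusted p under 0.05 in either tool. Over all tested genes the log2 fold changes had a median of 0.0058, and over the 5 a median of 0.64.

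PCDHB2, a beta gene, was the up-regulated gene. It had 2, 7 and 10 counts untreated and 15, 21 and 22 after VPA. These are 6.63 ± 4.26 and 18.6 ± 3.65 normalized counts (SD, n = 3), and the groups did not overlap. The log2 fold change was 1.47 (standard error 0.38, edgeR adjusted p = 0.00205). Its 95% interval, 0.72 to 2.22, reaches below a log2 fold change of 1, and PCDHB2 was not called when that threshold was placed inside the test (glmTreat adjusted p = 0.405). PCDHB2 lies at chr5:141094615-141098703 and made up 38.1% ± 8.25 of the beta counts of an untreated library and 32.4% ± 0.488 after VPA, so its share of the cluster was not larger after treatment.

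PCDHGC3, a C-type gene known to be used in many tissues outside the nervous system, lies at chr5:141475966-141512975 and was the most abundant member. Its normalized counts were 251, 238 and 225 untreated and 369, 372 and 368 after VPA. The VPA-treated libraries differed little among themselves and lay above all untreated libraries. The log2 fold change was 0.64 (standard error 0.075, edgeR adjusted p = 1.93e-07), below the threshold of 1. PCDHGC3 held 56.5% ± 1.10 of the gamma counts of an untreated library and 59.9% ± 2.67 of those of a VPA-treated library (SD, n = 3).

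PCDHGC4, a C-type gene that is known for its role in the survival of cortical interneurons, had 35.2, 31.4 and 25.2 normalized counts untreated and 47.0, 56.8 and 46.0 after VPA. The groups did not overlap. It rose by 0.70 on the log2 scale (standard error 0.19, edgeR adjusted p = 0.00257). PCDHGA11, an alternate A-type gene, had 96.3, 94.2 and 85.0 normalized counts untreated and 124, 123 and 98.6 after VPA. The lowest VPA-treated library and the highest untreated library were close for this gene. Its log2 fold change of 0.33 (standard error 0.12) passed the edgeR test (adjusted p = 0.0271) but not DESeq2 (adjusted p = 0.182), and it was lost when untreated replicate 2 or 3 or VPA-treated replicate 1 or 2 was left out (edgeR adjusted p between 0.0543 and 0.106). PCDHGB7, the B-type gene beside it, had 7, 9 and 9 counts untreated and 14, 15 and 11 after VPA. Its groups did not overlap either, but its log2 fold change of 0.55 did not pass (edgeR adjusted p = 0.171, 95% interval -0.11 to 1.21). Under scaling by ribosomal protein genes, which shifted the median over all tested genes to 0.28, PCDHGB7 passed at 0.82 (edgeR adjusted p = 0.035).

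**Figure D3:**
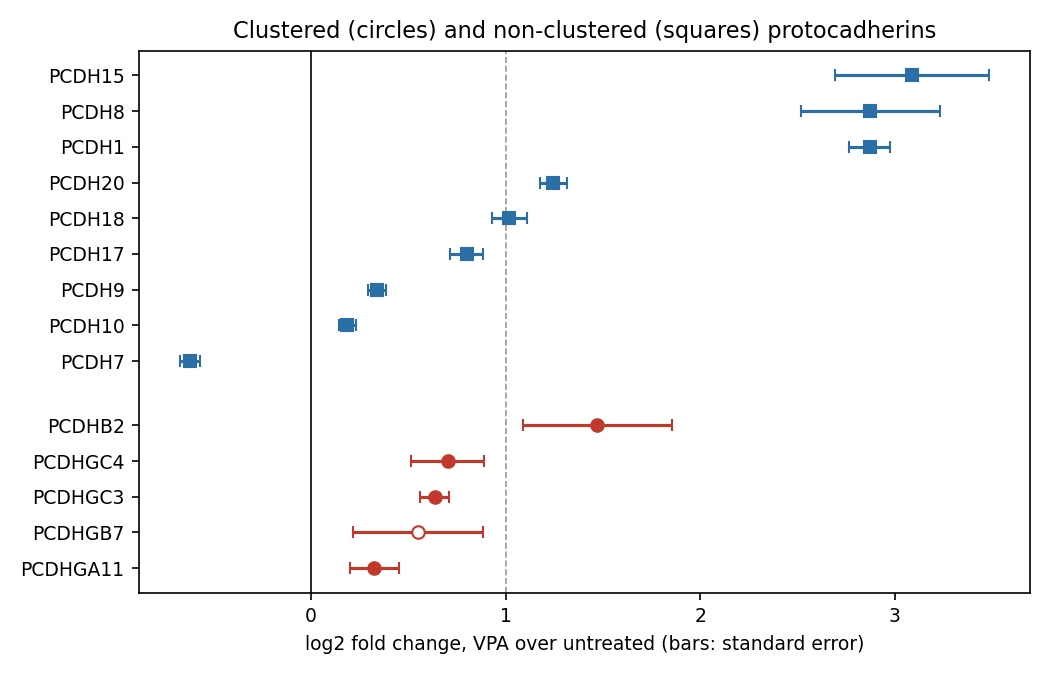
Log2 fold changes of VPA-treated over untreated libraries (horizontal axis, bars are standard errors of the edgeR fit, 3 libraries a group) for the 5 tested clustered protocadherins as circles and the 9 tested non-clustered protocadherins as squares. Filled symbols passed an adjusted p under 0.05, and the dashed line marks a log2 fold change of 1, which PCDHB2 and 5 non-clustered genes exceeded.

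The remaining C-type genes gave little signal. PCDHGC5 had 4, 2 and 2 counts untreated and 7, 4 and 1 after VPA, with overlapping groups. PCDHAC1 had no count in the untreated libraries and 1 count in each VPA-treated library. PCDHAC2 had none in any library, which allows up to 3 counts in each group.

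Levels were also taken per kilobase of exon that no other clustered protocadherin gene shares in GENCODE 44. Overlap with genes outside the clusters was not checked. In VPA-treated libraries the level was 114 normalized counts for PCDHGC3, 31.7 for PCDHGA11 and 17.9 for PCDHGC4. PCDHGB7 with 4.60 and PCDHB2 with 4.53 came next, at a level so alike that their order cannot be read. PCDHGB5 had 3.66, PCDHGA7 3.53 and PCDHGB1 3.45. PCDHA11 reached 1.43 and led the alpha cluster on this scale.

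Without the filter every gene with at least 1 count entered the edgeR fit, 26353 genes in all. In that fit 8 of the 49 detected clustered protocadherins were up-regulated, against 9.56% of all genes. In the same fit 0 were down-regulated (0.615% of all genes were), and 0 were lower at an unadjusted p under 0.05 (20.8% of all genes were). By the adjusted p alone 11 were higher, against 20.7% of all genes. All 8 were alpha or beta genes and had between 1 and 100 counts in total. There were 46 members in that range, and 9.12% of the 12303 genes in the range were called. The share was larger in the members than in the background, and the difference was not tested.

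PCDHA11 had 0, 1 and 0 counts untreated and 4, 5 and 6 after VPA (unfiltered log2 fold change 3.36, standard error 1.03, edgeR adjusted p = 0.00354). The ratio of its summed counts was 13.8, with a 95% counting interval from 2.12 to 581 that covers counting error only. Each VPA-treated library was above each untreated one, and DESeq2 also called PCDHA11. PCDHA10, its neighbour and the alpha gene with the most counts, had 5, 1 and 2 counts untreated and 12, 13 and 4 after VPA. Its groups overlapped, as VPA-treated replicate 3 lay below untreated replicate 1 (unfiltered log2 fold change 1.67, standard error 0.56, edgeR adjusted p = 0.00797), and DESeq2 did not call it (adjusted p = 0.0851).

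Among the beta genes PCDHB8 had 0, 0 and 1 counts untreated and 4, 5 and 4 after VPA (edgeR adjusted p = 0.00966 without the filter, DESeq2 adjusted p = 0.0568). PCDHB5 had 0, 1 and 1 against 3, 2 and 7, close to the threshold (edgeR adjusted p = 0.0492 without the filter, DESeq2 adjusted p = 0.169). PCDHB6, PCDHB11 and PCDHB16 had no untreated count, and DESeq2 gave them no adjusted p. Against a floor of 3 counts over the untreated group, PCDHB6 with 7 VPA-treated counts and PCDHB16 with 7 were at least 2.15-fold higher, and PCDHB11 with 6 counts at least 1.84-fold higher. Near-identical stretches limit the assignment within this cluster. Of the 100-base windows (a length chosen here) in the exon of PCDHB8, 25.6% occurred unchanged in another cluster gene, and 24.7% of those of PCDHB10, 11.5% of those of PCDHB2 and 8.53% of those of PCDHB16. Outside the exon bases shared by annotation, no such window was found in PCDHA10, PCDHA11, PCDHGA11, PCDHGC3 or PCDHGC4. The shared constant exons were left out of this search, and pseudogenes and other genes were not searched.

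Further members had more counts after VPA without passing the test on all 6 libraries, filtered or not. PCDHB15 had 2, 6 and 2 counts untreated and 7, 8 and 10 after VPA, and PCDHB14 had 0, 2 and 3 against 4, 4 and 8. In the gamma cluster PCDHGA2 had 0, 1 and 0 against 5, 2 and 2, and PCDHGA1 2, 3 and 3 against 4, 9 and 7. The edgeR adjusted p-values of these 4 genes were between 0.0645 and 0.135 without the filter. PCDHGA7 had 7, 6 and 6 counts against 14, 15 and 7, so that VPA-treated replicate 3 alone was at the untreated level, and without that replicate it was up-regulated.

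Other gamma genes gave no such separation. PCDHGB5 had 12, 10 and 8 counts untreated and 18, 6 and 7 after VPA. PCDHGB2 had 3, 7 and 4 in the untreated libraries and the same 3, 7 and 4 in the VPA-treated ones, and PCDHGA6 had 4, 7 and 3 against 5, 5 and 6. PCDHGB6 went the other way with 0, 4 and 4 against 1, 0 and 3, within its spread.

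Counted over all members, the mean was higher after VPA in 41 of the 49 detected genes and lower in 8. The groups did not overlap in 17 with VPA higher (24.6% of all genes with a count had this pattern) and in 1 with VPA lower (19.7% of all genes). That gene, PCDHGA10, had 3, 2 and 2 counts against 2, 2 and 2, and its groups were set apart by the scaling alone. The 19.7% covers genes of all count levels, and no such share was taken for genes with 1 to 100 counts. Among the 46 members with 1 to 100 counts, 14 did not overlap with VPA higher, against 13.6% of genes in that range. The mean was higher after VPA in 38 of the 46, against 63.3% of genes in that range. The 8 genes with non-overlapping groups in the beta cluster were PCDHB2, PCDHB5, PCDHB6, PCDHB8, PCDHB11, PCDHB14, PCDHB15 and PCDHB16.

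The non-clustered protocadherins, each with a gene and promoter of its own, were compared as relatives. Of 12 listed, 9 were tested and 5 were up-regulated (12% of all tested genes were). By the edgeR adjusted p 8 were higher (32.9% of all tested genes) and 1 was lower (30%). The median log2 fold change was 1.02. PCDH1, an adhesion protein of airway epithelium, rose from 48.4 ± 4.40 to 354 ± 10.2 normalized counts (SD, n = 3). PCDH15, part of the tip link of hair cells, had 3, 4 and 1 counts untreated and 28, 21 and 28 after VPA (log2 fold change 3.09). PCDH8 had 12, 5 and 3 counts untreated and 66, 61 and 35 after VPA (log2 fold change 2.87). Both passed the filter through the VPA-treated group, in which they were higher. Counts and the median over the tested relatives therefore give no support of their own. PCDH20 and PCDH18 were also up-regulated, at 1.25 and 1.02. PCDH18 lay at the threshold, and at 0.9958 by DESeq2 and 0.9978 by unfiltered edgeR it was not up-regulated, which left 4. PCDH7 was lower by the adjusted p at -0.62. PCDH7 was also the 1 lower gene under every other scaling tried. PCDH11X and PCDH19 were listed at 0 in all libraries, as were the X-linked cohesin genes SMC1A and STAG2, and no level is given for them.

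The genes around the clusters did not share one direction, and the sign of those near 0 depended on the scaling. In the TMM scaling, before the alpha cluster WDR55, HARS1, HARS2 and ZMAT2 were lower by the edgeR adjusted p, with log2 fold changes between -0.43 and -0.27, and DND1 did not pass. TAF7, a subunit of the general transcription factor TFIID, lies between the beta and gamma clusters and was also lower, from 2094 ± 44.7 to 1671 ± 7.05 normalized counts (log2 fold change -0.33, edgeR adjusted p = 8.18e-07). SLC25A2, also between them, had 3 counts in all. Beyond the gamma cluster DIAPH1, HDAC3 and RNF14 were lower at -0.21, -0.26 and -0.22, while RELL2 at 1.17 and ARAP3 at 2.55 were up-regulated and FCHSD1 was higher at 0.46. PCDH1, given above as a relative, also lies there, between ARAP3 and DELE1, and was up-regulated at 2.87. Scaling by ribosomal protein genes kept RELL2 and ARAP3 up-regulated, left 1 of the 4 lower genes before the alpha cluster (WDR55) past the adjusted p, and put TAF7 at -0.054 with an edgeR adjusted p of 0.275. The pseudogenes of the clusters (PCDHB17P, PCDHB18P, PCDHB19P and PCDHGB8P) had between 1 and 15 counts in all 6 libraries together.

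**Figure D4:**
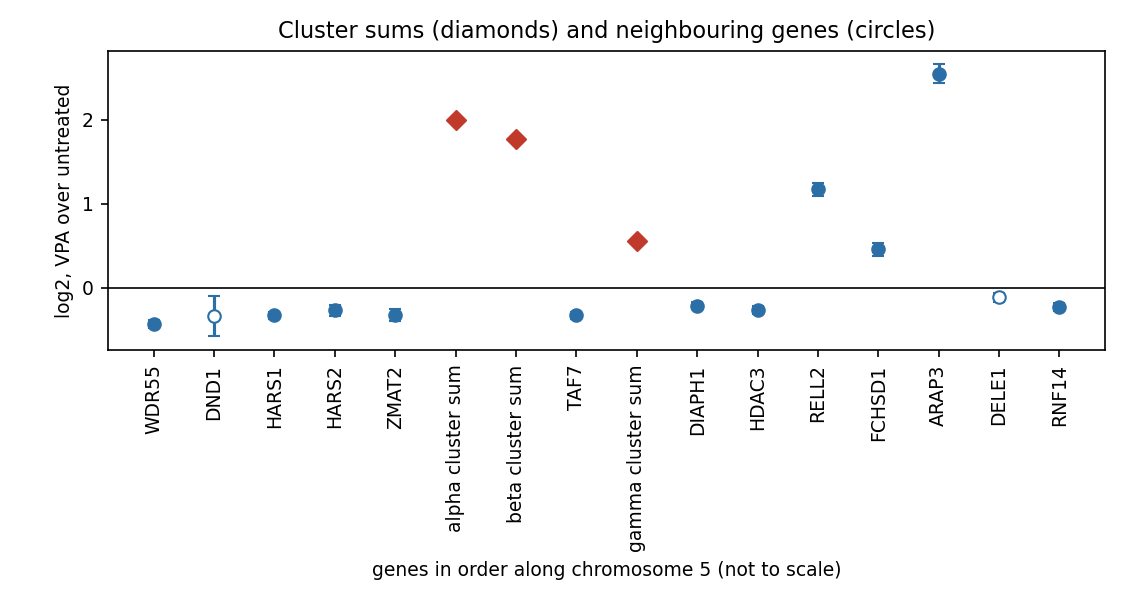
Log2 difference between VPA-treated and untreated libraries (vertical axis) for the 3 cluster sums (diamonds, log2 ratio of group means, no test) and the 13 tested neighbouring genes (circles with standard errors of the edgeR fit, filled at an adjusted p under 0.05), in their order along chromosome 5. TAF7 lies below 0 between the beta sum at 1.77 and the gamma sum at 0.56. Only genes listed as neighbours are drawn, so PCDH1, between ARAP3 and DELE1, is left out.

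Genes known to control promoter choice in the clusters were mostly lower after VPA in the TMM scaling, a direction that did not hold when ribosomal protein genes set the scale. Of 22 listed, 19 were tested, 14 were lower, 2 were higher and 3 did not pass. None went beyond a log2 fold change of 1, and the median was -0.24. Over all tested genes 30% were lower and 32.9% were higher. CTCF, which binds the alternate promoters and the cluster enhancers, fell from 3812 ± 216 to 2956 ± 100 normalized counts (log2 fold change -0.37, standard error 0.045, edgeR adjusted p = 3.84e-07). The cohesin subunits RAD21, SMC3 and STAG1 were lower at -0.24, -0.24 and -0.46. SETDB1, a histone H3 lysine 9 methyltransferase, was lower at -0.41 and its partner TRIM28 at -0.56. The de novo DNA methyltransferases DNMT3A and DNMT3B were higher at 0.24 and 0.40, while the maintenance enzyme DNMT1 was lower at -0.24. SMCHD1, a repressor of the clusters in mice, PDS5B and REST did not pass. Under the ribosomal scaling 3 of the 19 were lower (TRIM28, SETDB1 and STAG1) and 6 were higher (60.5% of all tested genes were). In that scaling the median was 0.027 and CTCF was at -0.095 with an edgeR adjusted p of 0.0565. What part these genes had in the counts of the clusters was not tested.

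Genes for proteins that bind, cleave or signal from the protocadherins were mixed. Of 14, all tested, 5 were higher, 4 were lower and 5 did not pass. Over all tested genes 32.9% were higher and 30% were lower. RET, a receptor kinase that phosphorylates protocadherins, was up-regulated from 59.2 ± 9.83 to 262 ± 11.5 normalized counts (log2 fold change 2.15), and SORBS2 was up-regulated at 1.16. The kinases PTK2 and PTK2B, which bind the constant domains, and FYN did not pass. In the WAVE complex, an actin regulator that some protocadherins recruit, CYFIP2 at 0.53, ABI2 at 0.30 and WASF1 at 0.16 were higher, and CYFIP1 at -0.22 and NCKAP1 at -0.16 were lower. ADAM10, a protease that cleaves them, did not pass, and NCSTN was lower at -0.45. Under the ribosomal scaling 10 of the 14 were higher (60.5% of all tested genes were) and 1, NCSTN, was lower. RET and SORBS2 stayed the up-regulated pair.

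The label of the cell line was checked against markers. All 9 markers listed for HEK293T passed the filter, with VIM and NEFM the highest. The 3 blood markers summed to 0 normalized counts in the untreated libraries and to between 3.85 and 4.79 in the VPA-treated ones. Most of this came from PTPRC, with no untreated count and 5, 4 and 3 counts after VPA. PTPRC was up-regulated without the filter (edgeR adjusted p = 0.0019) and by DESeq2 (adjusted p = 0.0199). CD3E and HBB had no more than 1 count in all. The 3 liver markers summed to at most 3.15 in any library. The 3 fibroblast markers DCN, LUM and PDGFRA were up-regulated and summed to between 57.7 and 65.2 untreated and between 351 and 364 after VPA. Of the 3 astrocyte markers GFAP and AQP4 were up-regulated and SLC1A3 was lower, with sums between 1255 and 1554 untreated and between 1076 and 1188 after VPA. Their part in the counts of the cluster genes was not tested.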

How the data were processed

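RNA-seq libraries of untreated and VPA-treated HEK293T cells (3 each) were grouped by the sample labels. Adapters and low-quality reads were removed by the authors with SOAPnuke before alignment to hg38 by STAR and counting by htseq-count, and the deposited values are raw counts per gene without normalization. STAR 2.7.10b and HTSeq 2.0.1 are named in the submitters' processing notes. The gene annotation and the counting mode and strand setting are not given in the sources used here. The lines of the counting summary, which name no gene, held 11.8% to 12.7% of the reads listed and were left out.

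The test was that of edgeR 4.0.16 under R 4.3.3 (TMM, filterByExpr with a count minimum of 10, robust quasi-likelihood fit, prior count 0.125, Benjamini-Hochberg adjustment over all tested genes). Standard errors are the log2 fold change over the root of F. DESeq2 1.42.0, other scalings and filters, glmTreat, a replicate block and leaving out each library were alternatives. The scripts were tested on simulated counts of genes that pass the filter. The unfiltered calls on genes with few counts and the cluster sums were not covered by that simulation. Ratios of few counts have exact 95% intervals for counting error.

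Named genes were the called members, in each cluster the 5 tested members with the most counts, the C-type genes, members lower by the adjusted p, and genes of fixed lists. Other members were named after their values were seen. Members and lists were chosen with earlier results of these data known.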

Additional observations from a re-analysis of the deposited data

How the results depend on the processing

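The count of up-regulated clustered protocadherins was 1 in the main test, 2 with DESeq2 (PCDHA11 and PCDHB2, against 10.1% of all genes with an adjusted p), 8 without a filter on low counts (9.56%), 0 with at least 10 counts in every library (8.49%) and 0 with glmTreat (7.51%). PCDHB2 is not tested with at least 10 counts in every library. Leaving out 1 library gave between 1 and 3 (12.1% to 12.6% of all genes), with PCDHA10 added without untreated replicate 1 or 3, and PCDHA10 and PCDHGA7 added without VPA-treated replicate 3. The count of members higher by the adjusted p was 4, 11 without a filter (20.7% of all genes), and 3 to 6 with 1 library left out (30.0% to 32.0%). The log2 ratio of the gamma sum was 0.56 in the main scaling, 0.69 by library totals, 0.83 by ribosomal protein genes and 0.44 when PCDHGC3 was left out of the sum. Library totals moved the median over all tested genes to 0.14 and ribosomal protein genes to 0.28, and the share of higher genes among all genes past the adjusted p from 52.3% to 73.8% and 91.6%. With the replicate number as a block (replicate block) 1 member was up-regulated and 4 were higher, as without it. The same-numbered libraries deviated together with correlations of 0.126, 0.018 and 0.071, and the differently numbered ones with correlations between -0.098 and 0.031. These values do not settle whether the numbers pair the libraries. As the labels do not say so either, the main test left the libraries unpaired. No count, cluster sum or log2 fold change of the 5 tested members reversed in sign, whereas among the listed genes ribosomal protein scaling turned several, among them RAD21 from -0.24 to 0.036, DNMT1 from -0.24 to 0.028, PDS5A from -0.16 to 0.11 and DIAPH1 from -0.21 to 0.062, and the median of the regulators from -0.24 to 0.027. No member of the alpha cluster passed the filter, so its sum over filtered members has no value. With 1 to 10 counts a gene, depth limits most alpha and beta genes.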
